A study of Mus musculus with 6 samples.

Results

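Vascular endothelial growth factor (VEGF) ligand and receptor transcripts were read in mouse hippocampus as 5 named genes: the ligand genes Vegfa, Vegfb and Vegfc and the receptor genes Flt1 and Kdr. They were chosen by name, with their measured levels in the same PHF2 t/g and WT libraries already known. Their differences between genotypes are therefore given as a description, with no p-value. Where such a gene is said to be past a threshold, that is part of the description and lends no support. They are 5 of the 23282 gene entries in each count file, and all 5 are among the 12831 genes that passed the low-count filter. The WT group was C57BL/6 wild-type mice aged 16 weeks, in 3 libraries. The PHF2 t/g group was C57BL/6 mice of the same age that carry that genotype label, also in 3 libraries. The label is read here as a transgene for PHF2, a demethylase of histone H3. For the construct, its promoter, the cells it is active in and the number of founder lines, no detail was given in the labels used here. The tissue was whole hippocampus, so each value sums neurons, glia and vessels, and fewer cells of a type cannot be told apart from less RNA per cell.

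VEGF-A is secreted by astrocytes, neurons and other cells and acts on endothelial cells, where it drives the growth, survival and permeability of vessels. Its main signalling receptor is VEGFR2, the product of Kdr, while VEGFR1, the product of Flt1, binds VEGF-A more tightly and is known to act largely as a trap for it. Of these receptors VEGF-B binds VEGFR1, VEGF-C acts mainly through VEGFR3 in lymphatic growth, and the neuropilins serve as co-receptors. In the adult hippocampus VEGF-A is also known for its effects on neurogenesis and on neurons.

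The stretches upstream of 3 of the genes are shown because Vegfa, Flt1 and Kdr were all read at higher levels in PHF2 t/g, and because Flt1 and Kdr, both typical of endothelial cells, differ in their promoter letters. Each is the 150 bases before an annotated transcript start (RefSeq, GRCm38.p6), read 5′ to 3′ on the gene's own strand, which is the minus strand for all 3. Capitals mark matches to 4 letter patterns searched on both strands: the cyclic AMP response element TGACGTCA, the TATA box TATAAA, the hypoxia response core ACGTG or GCGTG, and the GC box GGGCGG. A GC box on the other strand reads CCGCCC.
Flt1, chr5:147726012-147726161: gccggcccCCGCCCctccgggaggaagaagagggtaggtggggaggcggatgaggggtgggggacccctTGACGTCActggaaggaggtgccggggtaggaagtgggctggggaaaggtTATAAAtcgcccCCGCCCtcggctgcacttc
Kdr, chr5:75978456-75978605: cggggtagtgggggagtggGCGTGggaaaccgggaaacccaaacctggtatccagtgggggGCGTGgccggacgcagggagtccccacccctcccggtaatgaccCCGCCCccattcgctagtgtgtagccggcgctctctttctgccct
Vegfa, chr17:46032378-46032527: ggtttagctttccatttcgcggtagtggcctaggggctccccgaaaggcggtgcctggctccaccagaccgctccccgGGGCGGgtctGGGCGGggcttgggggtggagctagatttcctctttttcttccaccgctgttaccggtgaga

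In the Flt1 stretch the cyclic AMP response element began 81 bases before the transcript start and the TATA box 31 bases before it. The Kdr stretch held neither pattern and had hypoxia response cores 131 and 89 bases before its start. The Vegfa stretch, upstream of the farther of the 2 starts in the table, held 2 GC boxes and none of the other patterns. In the 300 bases around the other Vegfa start there were 2 hypoxia response cores, 218 and 211 bases before it, and 1 GC box. That window, chr17:46025114-46025413, lies inside the annotated Vegfa gene, 46016993 to 46032369, so its letters are not upstream of the gene. Windows of 300 bases around 32851 annotated starts gave the background: 1.79% held TGACGTCA, 13.6% held TATAAA, 43.8% held a hypoxia response core and 35.7% held a GC box. In windows of that length Flt1 also held a hypoxia response core, 184 bases before its start, so this pattern was present for both Flt1 and Kdr. Vegfb, which was read lower in PHF2 t/g, held 2 hypoxia response cores and 4 GC boxes in such a window. Vegfc held 0 and 2, and the co-receptor gene Nrp1 held 1 of each. These 2 patterns were thus not limited to the genes read higher. A match is a description of the letters only, and the wider Vegfa locus, where its known hypoxia element lies, is outside this window.

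The libraries held 6053363 to 8612720 counts for PHF2 t/g mice and 5512171 to 8844718 for WT mice. Levels are CPM, counts divided by library size and put on a common scale between libraries by TMM, and they are given as mean ± SD over n = 3 libraries. Since 3′ end sequencing reads about 1 tag per transcript, these levels do not grow with transcript length, and levels of different genes are set side by side on that basis. WT replicate 2 stood apart from the other libraries in a multidimensional scaling plot, and PHF2 t/g replicate 1 in the choroid plexus gene Ttr, at 292 CPM against 1.29 to 4.46 CPM in the other 5. Phf2 itself was at 37.7 ± 1.92 CPM in WT and 38.7 ± 3.96 CPM in PHF2 t/g (log2 fold change 0.03, edgeR adjusted p = 0.929); tags near the endogenous 3′ end need not come from a transgene, and the value is therefore no check of the genotype. By edgeR's quasi-likelihood test at an adjusted p under 0.05, 2.27% of all tested genes passed, 0.779% as higher and 1.49% as lower in PHF2 t/g. The same test gave an unadjusted p under 0.05 to 1882 of the 12831 tested genes, which is the background for such counts in the lists below. Of the genes that passed, 34.4% were higher with TMM, 18.5% by DESeq2 and 74.7% with library size alone. TMM put the median log2 fold change of all tested genes at 0.02, and library size alone put it at 0.12. Hippocampal neuron markers were present as the tissue label requires: none of 17 was at 0, and their summed level was 2868 to 3282 CPM in WT and 2713 to 2954 CPM in PHF2 t/g.

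In PHF2 t/g hippocampus the VEGF-A transcript was read 1.58-fold higher than in WT and its decoy receptor Flt1 1.40-fold higher. Kdr was 1.28-fold higher, Vegfb was 1.14-fold lower, and Vegfc was too sparse to place. Of the 5 genes, 2 (Vegfa and Flt1) were past the edgeR threshold, against 2.27% of all tested genes, and in 4 the 3 libraries of each genotype did not overlap, against 20.6% of all tested genes. Because the genes were chosen with this contrast known, nothing is read from those shares. Of the genes past the threshold Flt1 was the nearer to it, with a log2 fold change of 0.48 (SE 0.107). Of the others Vegfb had the largest change relative to its error, −0.19 (SE 0.110), and was not close to the threshold.

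Vegfa (chromosome 17, 46016993 to 46032369, minus strand, GENCODE M21 on GRCm38) was among the better expressed genes of the hippocampus, above 71.9% of tested genes in WT. The 3 WT libraries read 51.2, 46.5 and 53.1 CPM. The 3 PHF2 t/g libraries read 80.7, 81.2 and 76.6 CPM. Every PHF2 t/g library was above every WT library, and the gap between the groups was several times the spread inside either one. The means were 50.3 ± 3.39 CPM in WT and 79.5 ± 2.55 CPM in PHF2 t/g, a log2 fold change of 0.66 (SE 0.097). These rest on 1016 WT and 1775 PHF2 t/g counts, and the counting error of a single library was smaller than the distance between the groups. Relative to the median of all genes the log2 difference was 0.64 under TMM and also 0.64 if only library size was used. A change of scaling shifts all genes nearly alike, so these values agree by construction and add no support. Vegfa is annotated with 8 protein-coding transcripts that end at 4 positions, and the gene count does not separate the secreted and matrix-bound forms that splicing is known to make.

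Vegfb (chromosome 19, 6982473 to 6987651, minus strand) encodes a ligand of VEGFR1 known for roles in fatty acid handling and neuron survival more than in vessel sprouting. It was the highest of the 5 in WT, above 74.9% of tested genes. WT libraries read 53.3, 67.7 and 54.0 CPM and PHF2 t/g libraries 49.2, 51.5 and 52.9 CPM. The groups lay close together, the highest PHF2 t/g library sitting just under the lowest WT library, and WT replicate 2 alone was far above the rest. The means were 58.3 ± 8.10 CPM in WT and 51.2 ± 1.90 CPM in PHF2 t/g (log2 fold change −0.19, SE 0.110). With library size alone the groups overlapped, at 50.9 to 65.2 CPM in WT and 51.5 to 54.5 CPM in PHF2 t/g. Without WT replicate 2 the log2 fold change was −0.07. Vegfb has close neighbours, Dnajc4 lying 259 bases beyond its 5′ side and Fkbp2 1971 bases beyond its 3′ side, and the sources used here do not say whether counting used strand.

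Vegfc (chromosome 8, 54077606 to 54187096, plus strand), a ligand of lymphatic vessels, was close to the limit of detection. It had 15, 4 and 7 counts in the WT libraries and 13, 12 and 15 counts in the PHF2 t/g libraries. In CPM these were 2.86, 0.470 and 1.06 in WT and 1.44, 1.70 and 2.41 in PHF2 t/g. The groups overlapped, with the highest and the lowest of the 6 values both in WT. The exact 95% Poisson interval of the lowest value, 0.128 to 1.20 CPM, and that of the highest, 1.60 to 4.71 CPM, show how little 66 counts in all can place, and they cover counting error only. The log2 fold change of 0.45 (SE 0.519) became −0.05 without WT replicate 2 and 1.28 without WT replicate 1, so no direction is given.

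**Figure D1:**
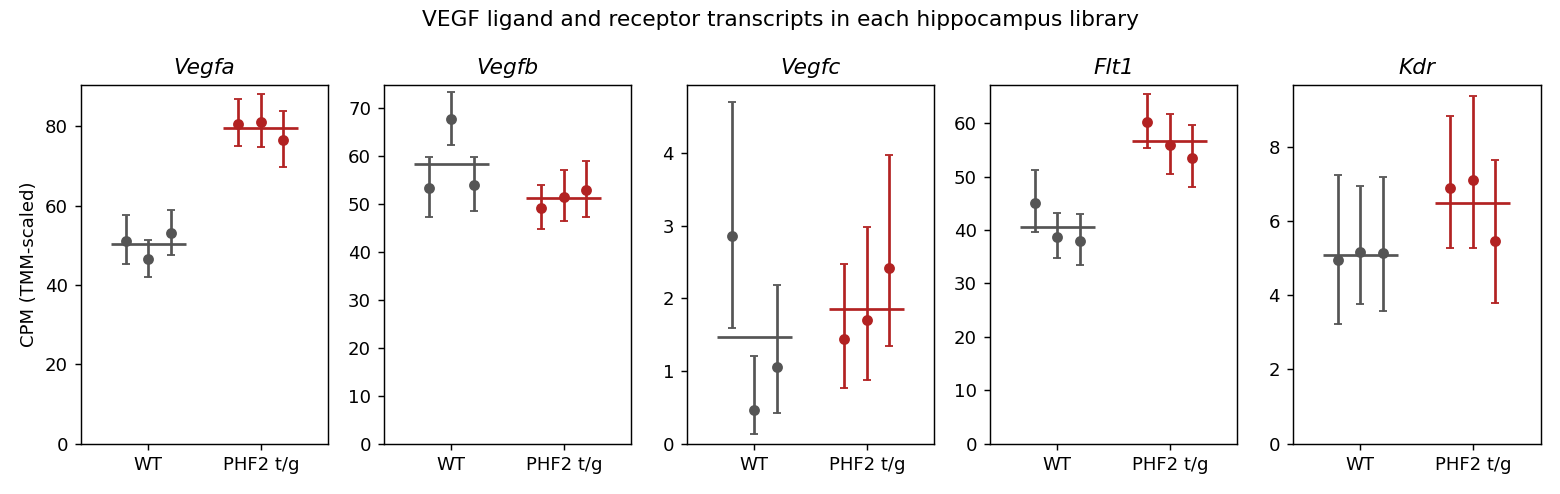
Level of each VEGF ligand and receptor gene in each library, in TMM-scaled CPM on linear axes that start at 0, with WT in grey and PHF2 t/g in red. Points are libraries, vertical bars are exact 95% Poisson intervals of the count, and horizontal lines are group means. Vegfa and Flt1 show clear space between the groups, Vegfb and Kdr little, and Vegfc none.

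Flt1 (chromosome 5, 147561604 to 147726011, minus strand) was the main VEGF receptor transcript of these libraries, above 67.3% of tested genes in WT. WT libraries read 45.1, 38.8 and 38.0 CPM. PHF2 t/g libraries read 60.3, 56.0 and 53.6 CPM. The lowest PHF2 t/g library was above the highest WT library, and replicate 1 was the highest library in both groups. The means were 40.6 ± 3.91 CPM in WT and 56.6 ± 3.40 CPM in PHF2 t/g, a log2 fold change of 0.48 (SE 0.107). Its value was 0.43 without PHF2 t/g replicate 1 and 0.43 without WT replicate 3. Flt1 is known to give a soluble receptor from a shorter message. Its annotation holds 2 protein-coding transcripts whose ends lie 73555 bases apart, and a gene count does not say which of them was read.

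Kdr (chromosome 5, 75932827 to 75978458, minus strand), the gene of the main signalling receptor, was read far below Flt1 and above only 19.8% of tested genes in WT. WT libraries read 4.95, 5.17 and 5.14 CPM, and PHF2 t/g libraries 6.88, 7.10 and 5.47 CPM. The WT libraries were nearly level, while among PHF2 t/g libraries replicate 3 was close to WT and the other 2 were higher. The means were 5.09 ± 0.121 CPM in WT and 6.48 ± 0.885 CPM in PHF2 t/g (log2 fold change 0.35, SE 0.224). The counts behind them were 26, 44 and 34 in WT and 62, 50 and 34 in PHF2 t/g. At this depth the interval of each PHF2 t/g library reached down to the WT level or near it.

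The order of the 5 genes by count was the same in all libraries of a genotype and differed between the genotypes, though some neighbours were nearly tied. In each of the 3 WT libraries the counts ran Vegfb, Vegfa, Flt1, Kdr, Vegfc from highest to lowest. In each of the 3 PHF2 t/g libraries they ran Vegfa, Flt1, Vegfb, Kdr, Vegfc. In WT the neighbours in this order were close: the lowest Vegfb library (53.3 CPM) was level with the highest Vegfa library (53.1 CPM), and the lowest Vegfa library (46.5 CPM) with the highest Flt1 library (45.1 CPM). In PHF2 t/g Vegfa stood clear above Flt1, while Flt1 and Vegfb were close, the lowest Flt1 library (53.6 CPM) lying next to the highest Vegfb library (52.9 CPM). Within libraries, Vegfb against Vegfa counts were 280 to 269, 576 to 396 and 357 to 351 in WT replicates 1, 2 and 3. Flt1 against Vegfb counts were 543 to 443, 394 to 363 and 333 to 329 in PHF2 t/g replicates 1, 2 and 3. The smallest of these differences lie within counting error, so the order of those pairs is not settled there. The step from there down to Kdr was far larger than the spread in both genotypes. Kdr was above Vegfc in every library, but in WT replicate 1 the counts were only 26 against 15.

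Ratios of counts within a library do not depend on how libraries are scaled. The count of Vegfa over Vegfb was 0.961, 0.688 and 0.983 in WT and 1.64, 1.58 and 1.45 in PHF2 t/g. All WT values were below 1 and all PHF2 t/g values above it, with means of 0.877 ± 0.165 and 1.55 ± 0.099. The ratio of Flt1 to Kdr, the decoy over the signalling receptor, was 9.12, 7.50 and 7.38 in WT and 8.76, 7.88 and 9.79 in PHF2 t/g. These overlapped, and the lowest and highest PHF2 t/g values lay within or close to the WT range. Vegfa over Flt1, the ligand over its decoy, was 1.14, 1.20 and 1.40 in WT and 1.34, 1.45 and 1.43 in PHF2 t/g, and these overlapped as well.

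**Figure D2:**
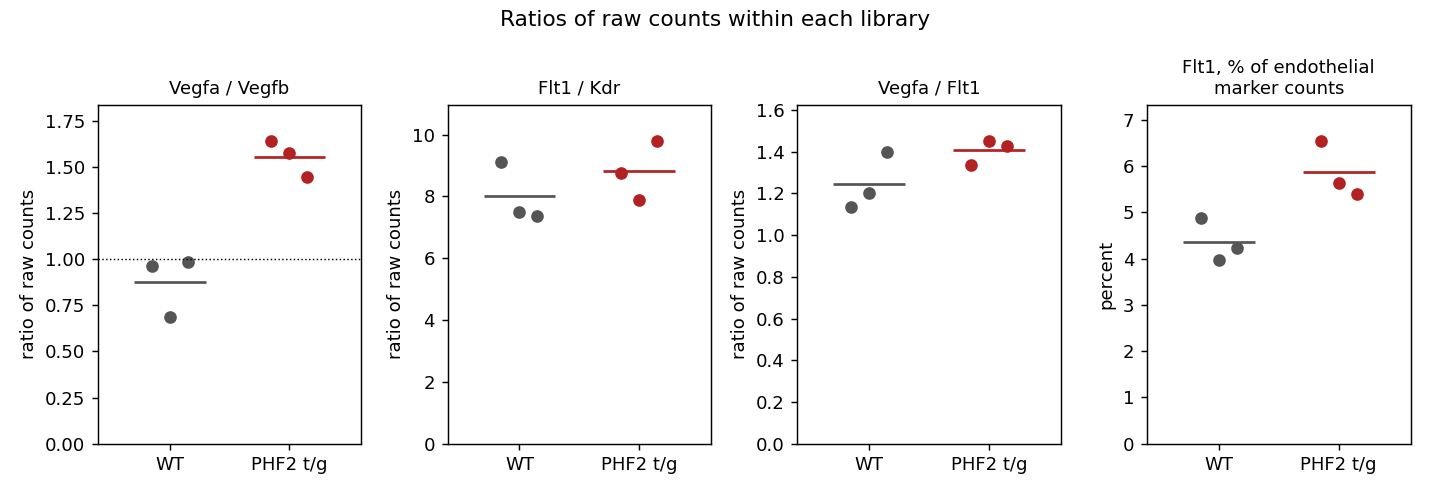
Ratios of raw counts within each library, on linear axes that start at 0: Vegfa over Vegfb, Flt1 over Kdr, Vegfa over Flt1, and Flt1 as a percent of the summed counts of endothelial marker genes. Points are libraries (WT grey, PHF2 t/g red) and lines are group means. The Vegfa over Vegfb ratio lies below 1 in all WT libraries and above 1 in all PHF2 t/g libraries, while the Flt1 over Kdr ratio overlaps.

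The levels of endothelial and astrocyte markers are given beside these values, since Flt1 and Kdr are typical of endothelial cells and Vegfa is made by astrocytes among others. Summed endothelial markers, none of 34 at 0, were 898 to 977 CPM in WT and 922 to 992 CPM in PHF2 t/g, which overlap. Flt1 was 4.87%, 3.97% and 4.23% of the summed endothelial marker counts in WT and 6.54%, 5.64% and 5.40% in PHF2 t/g. The shares did not overlap between the genotypes. The sum is weighted to its most abundant markers, and single markers differed. Pecam1 (log2 fold change 0.47) and Ly6c1 (0.67) were near or above Flt1 (0.48), Cldn5 was at −0.59, and 16 of 29 tested markers were above 0. The share therefore does not set Flt1 apart from every endothelial marker. The part of endothelial cell number in the Flt1 and Kdr values was not tested. Kdr was 0.534%, 0.529% and 0.573% of the same sum in WT and 0.747%, 0.715% and 0.552% in PHF2 t/g, with replicate 3 of PHF2 t/g inside the WT range. Vegfa was 1.10%, 1.03% and 1.19% of the summed counts of 16 astrocyte markers in WT and 1.72%, 1.79% and 1.73% in PHF2 t/g. The astrocyte sum was 4466 to 4664 CPM in WT and 4434 to 4706 CPM in PHF2 t/g.

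The other genes of the family were few and mostly sparse. Nrp2, which encodes neuropilin-2, a co-receptor for VEGF-C and for semaphorins, rose in PHF2 t/g. WT libraries read 36.2, 36.3 and 38.6 CPM and PHF2 t/g libraries 51.1, 55.4 and 46.3 CPM. The groups did not overlap, with means of 37.0 ± 1.36 and 50.9 ± 4.52 CPM, a 1.38-fold difference (log2 0.46, SE 0.108; edgeR adjusted p = 0.0297). That call was lost without PHF2 t/g replicate 1 (edgeR adjusted p = 0.185) or 2 (0.183) and without WT replicate 1 (0.0687) or 3 (0.0603). By limma-voom the adjusted p was 0.0550, and with an edgeR fit that was not robust it was 0.0593.

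Nrp1, the co-receptor that binds VEGF-A with VEGFR2, read 38.6, 37.4 and 28.1 CPM in WT and 41.1, 39.1 and 29.9 CPM in PHF2 t/g. The groups overlapped and replicate 3 was the lowest in both (log2 fold change 0.09, SE 0.143; edgeR adjusted p = 0.831). Pgf, the gene of placental growth factor, another ligand of VEGFR1, was at 3.26 ± 0.767 CPM in WT and 2.65 ± 0.705 CPM in PHF2 t/g (edgeR adjusted p = 0.788). Figf, the older symbol of the VEGF-D gene, and Flt4, the gene of VEGFR3, were below the low-count filter, with 33 and 15 counts in WT and 29 and 30 counts in PHF2 t/g. Of the family outside the 5 genes, 1 of 3 tested members rose, none fell, and the median log2 fold change was 0.09.

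Downstream of the receptors, transcripts of the signalling proteins did not pass the test. None of 38 genes of VEGF receptor signalling and its partners was past the edgeR threshold in either direction, 2 had an unadjusted p under 0.05, and the median log2 fold change was 0.01. The smallest p belonged to Mapk3, the gene of the kinase ERK1 (log2 fold change −0.19, edgeR adjusted p = 0.268), and Shc1, an adaptor of receptor tyrosine kinases (0.59, edgeR adjusted p = 0.303). Of 14 tested angiopoietin-Tie and Notch genes, which act beside VEGF in vessel sprouting and maturation, 0 passed and 0 had an unadjusted p under 0.05, with a median of −0.01. Their smallest p belonged to Notch1 (0.42, edgeR adjusted p = 0.362) and Nrarp (0.38, edgeR adjusted p = 0.365).

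Vegfa is a well-known target of the hypoxia-inducible factors (HIF), and both the system and its targets were read. None of 11 genes of the HIF system passed the edgeR test, 4 had an unadjusted p under 0.05, and the median log2 fold change was 0.14. Cited2, a HIF-induced inhibitor of HIF activity (0.58, edgeR adjusted p = 0.121), and Hif1an, the asparaginyl hydroxylase that inhibits HIF (−0.28, edgeR adjusted p = 0.128), had the smallest p. Of 24 tested hypoxia-induced target genes 2 rose and 22 did not pass, 3 had an unadjusted p under 0.05, and the median was 0.11 with 21 of the 24 above 0.

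Angptl4, a secreted inhibitor of lipoprotein lipase, read 1.52, 1.17 and 0.757 CPM in WT and 4.33, 6.67 and 4.99 CPM in PHF2 t/g. It was low in every WT library and rose 4.63-fold (edgeR adjusted p = 0.0017). Its counts were 8, 10 and 5 in WT and 39, 47 and 31 in PHF2 t/g, so few WT counts leave the size of that fold loosely placed. Slc2a1, the gene of the glucose transporter GLUT1 of the blood-brain barrier, read 40.4, 28.3 and 36.3 CPM in WT and 54.0, 47.9 and 51.2 CPM in PHF2 t/g. It rose 1.47-fold, from 35.0 ± 6.13 to 51.0 ± 3.05 CPM (edgeR adjusted p = 0.0247). The Slc2a1 call was lost without PHF2 t/g replicate 1 (edgeR adjusted p = 0.215), 2 (0.0895) or 3 (0.0901), by limma-voom (0.0514) and with a fit that was not robust (0.0664). Over the 5 pathway lists 89 genes were tested, of which 3 (Nrp2, Angptl4 and Slc2a1) rose, 0 fell and 86 did not pass, where 0.779% of all tested genes were called higher.

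**Figure D3:**
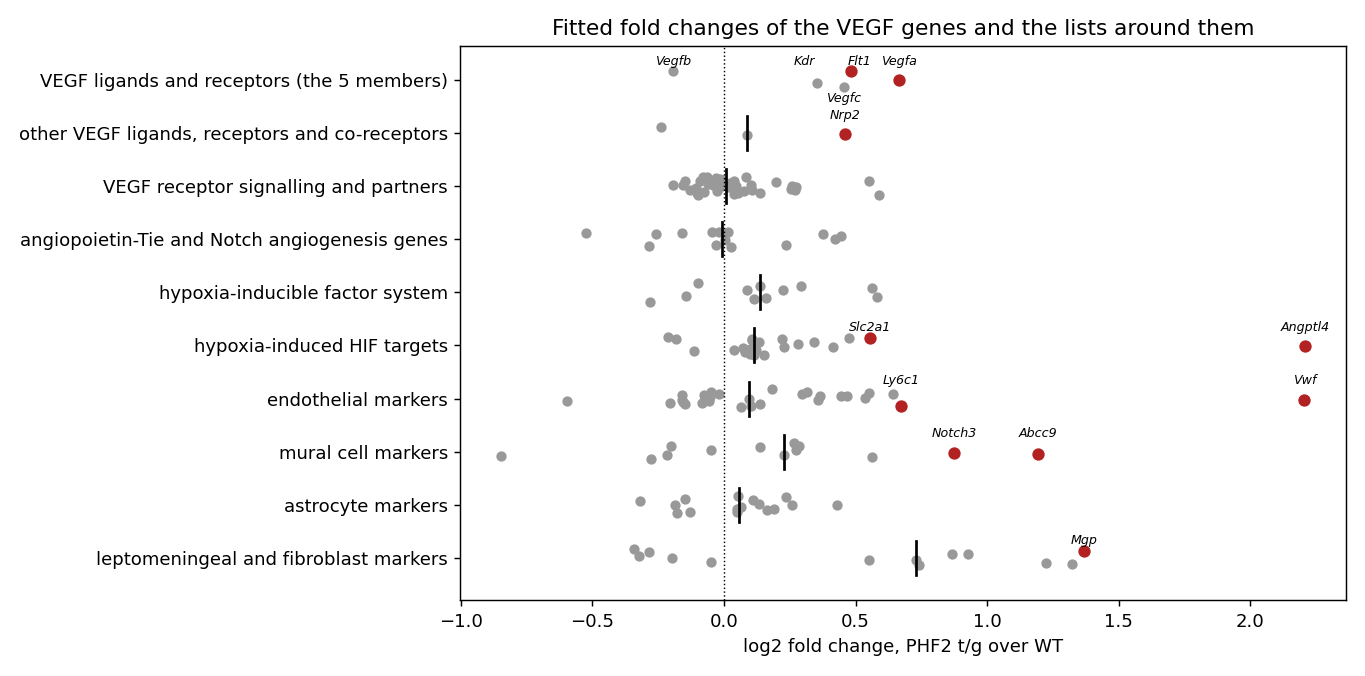
Fitted log2 fold change of PHF2 t/g over WT for each tested gene of the VEGF family, its pathway lists and 4 marker lists, on a linear axis. Points are genes, red where past the edgeR threshold (adjusted p under 0.05), and vertical ticks are list medians; the 5 members have no median because they were chosen with this contrast known. Most points of the signalling and sprouting lists lie near 0.

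Markers of vessel and surrounding cell types moved unevenly. Of 29 tested endothelial markers 2 rose: Vwf, the gene of von Willebrand factor, 4.61-fold from 0.907 ± 0.321 to 4.35 ± 1.08 CPM (edgeR adjusted p = 0.00357), and Ly6c1, a surface protein of brain endothelium, 1.60-fold (edgeR adjusted p = 0.0312). None fell, 16 of the 29 were above 0, 9 had an unadjusted p under 0.05 and the median log2 fold change was 0.10. Of those 9 the tight junction gene Cldn5, chosen after its value was seen, was the only 1 with a negative log2 fold change (−0.59, edgeR adjusted p = 0.0791). The Vwf counts were 3, 8 and 8 in WT and 43, 22 and 32 in PHF2 t/g, so the size of its fold is loosely placed. The Vwf call was lost without PHF2 t/g replicate 1 (edgeR adjusted p = 0.0640). Ly6c1 was lost without PHF2 t/g replicate 1 (0.214), 2 (0.0819) or 3 (0.126) and without WT replicate 1 (0.0665) or 3 (0.0655), by limma-voom (0.0568) and with a fit that was not robust (0.0505).

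Of 13 tested mural cell markers 2 rose, Notch3, a receptor of smooth muscle cells and pericytes, 1.83-fold (edgeR adjusted p = 0.0413) and Abcc9, a pericyte potassium channel subunit, 2.29-fold (edgeR adjusted p = 0.0433). Their calls were lost without PHF2 t/g replicate 1 (edgeR adjusted p = 0.265 and 0.268), 2 (0.191 and 0.0895) or 3 (0.0825 and 0.149) and without WT replicate 2 (0.0916 and 0.0899). The Abcc9 call was also lost without WT replicate 1 (0.0780), and both calls were lost by limma-voom (0.0727 and 0.0770) and with a fit that was not robust (0.0820 and 0.0705). Summed mural markers were 170 to 200 CPM in WT and 170 to 177 CPM in PHF2 t/g, none was at 0, and the median log2 fold change was 0.23. Of 16 tested astrocyte markers 0 passed and 4 had an unadjusted p under 0.05, with Gjb6 (log2 fold change 0.24, edgeR adjusted p = 0.171) and Aqp4 (−0.32, edgeR adjusted p = 0.184) at the smallest p and a median of 0.06.

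Summed marker lists of other tissue were higher in PHF2 t/g beside the VEGF genes, though not every marker in them was. Such sums are weighted to their most abundant genes. The part of such tissue in the VEGF values was not tested. Summed markers of neighbouring brain regions were 686 to 781 CPM in WT and 924 to 1052 CPM in PHF2 t/g, and 7 of 14 tested rose, among them the vasopressin gene Avp, at 0.284 ± 0.250 CPM in WT and 27.3 ± 0.853 CPM in PHF2 t/g (edgeR adjusted p = 3.5e-10), and Oxt, Pdyn, Tac1, Penk and Trh. The Trh call was lost without PHF2 t/g replicate 1 (edgeR adjusted p = 0.0753). Of the 21 in the files, Otp was at 0 in all libraries, and the median over the tested 14 was 0.58. Of these 14, 11 were above 0, and Adora2a (log2 fold change −0.33, edgeR adjusted p = 0.169) had the smallest p of the others. Pdyn, Tac1 and Penk were also present in WT, at means of 32.9, 29.3 and 142 CPM, against 59.0, 49.5 and 234 CPM in PHF2 t/g. These 3 genes supplied a large part of the rise in the sum, which is therefore no measure of other tissue alone. Summed leptomeningeal and fibroblast markers, none of 15 at 0, were 174 to 212 CPM in WT and 241 to 271 CPM in PHF2 t/g. Of 13 tested 1 rose, Mgp, a calcification inhibitor made by vascular and meningeal cells (2.58-fold, edgeR adjusted p = 2.5e-06). Mgp alone was at 43.6 ± 8.05 CPM in WT and 112 ± 7.26 CPM in PHF2 t/g. That gap was at least as large as the gap in the summed level, so the sum is no measure of the list as a whole. The list median was 0.73 with 8 of the 13 above 0, and Igfbp2 (−0.29, edgeR adjusted p = 0.216) had the smallest p of the others.

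Summed choroid plexus markers, none of 14 at 0, were 144 to 160 CPM in WT and 161 to 576 CPM in PHF2 t/g, with the highest in replicate 1. None of 4 tested passed, 2 had an unadjusted p under 0.05, and Clic6 (edgeR adjusted p = 0.0614) and Prlr (0.301) had the smallest p. The median log2 fold change of these 4 was 1.66. In replicates 2 and 3 of PHF2 t/g, where Ttr was at 3.69 and 1.29 CPM, Vegfa was at 81.2 and 76.6 CPM and Flt1 at 56.0 and 53.6 CPM. Clic6 was at 5.68 and 8.69 CPM in those replicates, against 2.09 to 3.64 CPM in WT. Prlr was at 1.99 and 2.09 CPM there, against 0.940 to 2.09 CPM in WT. Without PHF2 t/g replicate 1 the Vegfa log2 fold change was 0.65. The part of choroid plexus tissue in the Vegfa and Flt1 values was not tested.

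Among the remaining marker lists, 0 of 14 microglia markers passed and 3 had an unadjusted p under 0.05, with Cx3cr1 (log2 fold change −0.41, edgeR adjusted p = 0.0647) and Tmem119 (0.64, edgeR adjusted p = 0.126) at the smallest p. Of 14 oligodendrocyte markers 2 fell, Opalin 2.75-fold (edgeR adjusted p = 0.00213) and Mag 1.29-fold (edgeR adjusted p = 0.0465). Of 16 tested hippocampal neuron markers 1 rose, Wfs1, a marker of CA1 neurons (1.40-fold, edgeR adjusted p = 0.0191). The median log2 fold changes of the microglia, oligodendrocyte and neuron lists were −0.03, −0.15 and −0.08. The Wfs1 call was lost without PHF2 t/g replicate 1 (edgeR adjusted p = 0.185), 2 (0.0773) or 3 (0.0594) or WT replicate 3 (0.0682). The Mag call was lost without PHF2 t/g replicate 1 (0.324), 2 (0.182) or 3 (0.0917) and without WT replicate 1 (0.108) or 2 (0.0527), by limma-voom (0.104), with a fit that was not robust (0.0880) and if only library size was used (0.131).

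Genes whose pattern over the 6 libraries was most like that of each VEGF gene were found by the root mean square difference of log2 CPM, each gene centred on its own mean, among 9238 or 9239 genes of sufficient level. For Vegfa they were Jakmip3 (0.056), 9530091C08Rik (0.059) and Gad2 (0.076), where the median gene was at 0.360. For Flt1 they were Nrros (0.048), Msl3l2 (0.059) and Slc29a1 (0.062), with a median of 0.292. For Vegfb they were Fmnl1, Atp5sl and Coasy (0.030 to 0.032), and for Kdr Bbs9, Prpf38a and Fam178a (0.046 to 0.051). For Vegfc, the closest genes, Ppp3cc, Rfx3 and Hacd2, were no nearer than 0.159. Among the 5 genes themselves the closest pair was Vegfa and Flt1 (0.132), followed by Flt1 and Kdr (0.150), while Vegfa and Vegfb were 0.454 apart. These measures share the same 6 libraries and the same scaling, and they describe likeness over those libraries only. The genotype difference enters each distance, so genes with like fold changes lie close, and their closeness adds no support.

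**Figure D4:**
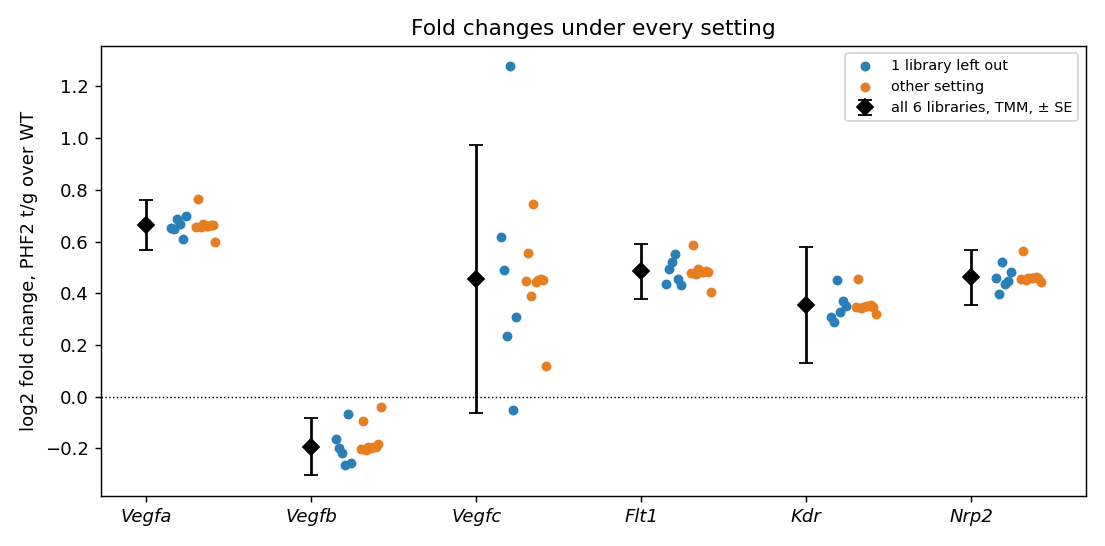
Log2 fold change of PHF2 t/g over WT for the 5 VEGF genes and Nrp2 on a linear axis. Black diamonds with bars are the TMM-scaled edgeR estimate ± SE from all 6 libraries, blue points leave out 1 library each, and orange points use another scaling, tool, filter or block. Vegfa stays between 0.60 and 0.76 and Flt1 between 0.41 and 0.59, both lowest with those 2 libraries left out, while Vegfc runs from −0.05 to 1.28.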

How the data were processed

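RNA from hippocampus was extracted with Trizol and made into 3′ end libraries with the QuantSeq kit, per the labels' protocols. Bowtie2, edgeR and mm10 appear in the submitters' processing notes; for versions, counter, annotation and strand the sources used here say nothing. The authors deposited 1 table of raw, unnormalized counts for each library, with 23282 gene symbols of which 44 repeat another and were kept apart. The labels give separate samples, not separate animals, so p-values measure the spread between libraries. Each title gave the genotype and the replicate number.

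The counts were filtered with filterByExpr, scaled by TMM and tested for genotype by the robust quasi-likelihood test of edgeR 4.0.16 (R 4.3.3), Benjamini-Hochberg adjusted over 12831 genes, at 0.05. SE is the log2 fold change divided by the square root of the F statistic. The procedure was checked on simulated data. The members, the 14 gene lists and the rules were chosen with earlier results of these data known. Named genes are the 5 VEGF genes; all of the other family members; in each list those past the threshold, at most 6, otherwise the 2 with the smallest p; Phf2 and Ttr; and the 3 genes most like each member (mean log2 CPM of at least 3, prior count 2). Alternatives were DESeq2 size factors or library size alone, DESeq2 1.42.0, limma-voom (limma 3.58.1), no low-count filter, a fit without robust estimation, a filter at 1 CPM in at least 3 libraries, a replicate block, each library left out, WT replicate 2 and PHF2 t/g replicate 1 both left out, and an adjusted p under 0.10. No 2 libraries of a group agreed within sampling noise (lowest chi-square per gene 2.82). Promoters come from RefSeq (GRCm38.p6) and gene positions from GENCODE M21; all 5 genes matched both by symbol.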

Additional observations from a re-analysis of the deposited data

How the results depend on the processing

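The 5 VEGF genes were chosen with this contrast known, so their values here are a description and support nothing. Vegfa had log2 fold changes of 0.60 to 0.76 (0.76 with library size alone). Nrp2 passed the edgeR threshold in 8 of 15 alternatives, Slc2a1 in 9 of 15 and Angptl4 in 14 of the 14 that gave an adjusted p. Flt1 was no longer past the threshold with a fit that was not robust, when PHF2 t/g replicate 1, 2 or 3 was dropped, without WT replicate 3 and with both outlying libraries left out. Vegfb was at −0.039 with both outlying libraries left out. With 1 library left out Vegfc ran from −0.051 to 1.28, and Nrp1 from −0.052 to 0.21, reversing to −0.0062 without PHF2 t/g replicate 1 and to −0.052 without WT replicate 3. Of all genes 291 were called, against 162 by limma-voom, 606 without the low-count filter, 149 with a fit that was not robust, 140 with both outlying libraries left out and 547 at an adjusted p under 0.10. With 1 library left out the count ran from 49 (PHF2 t/g replicate 1) to 392 (WT replicate 2). The 3 pathway calls became 1 by limma-voom, 1 with a fit that was not robust, 1 with both outlying libraries left out and 1 to 3 with 1 library left out. The cause of these moves was not tested. Deviations of same-numbered libraries correlated at −0.0044, 0.123 and 0.085 for replicates 1, 2 and 3. PHF2 t/g replicates 2 and 3 correlated best with the WT library of the same number, and replicate 1 with WT replicate 2 (0.014). A pairing by number is not settled by these values, and the main fit used genotype only. With the replicate block 299 genes were called, the Vegfa log2 fold change was 0.66 and Flt1 0.48, and among named genes the block ended the call of Mag (edgeR adjusted p = 0.0517) and no other. Depth limits Vegfc, Figf and Flt4, with 45 to 66 counts in all.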
